A study of Mus musculus with 8 samples.

Results

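The genes described here encode podocalyxin (Podxl), its relatives endoglycan (Podxl2) and CD34 (Cd34), the membrane-cytoskeleton linkers ezrin, radixin and moesin (Ezr, Rdx, Msn) and the adaptors NHERF1 and NHERF2 (Slc9a3r1, Slc9a3r2). They are 8 of 25536 genes tested, and 11 of 39429 probes of the array carry their names. Podxl was chosen on its measured signal in these tumours, as a gene past the threshold of the comparison between genotypes, and the other genes were chosen from what they bind or resemble, with results of the same comparison known. The differences between genotypes are therefore given for these genes as a description; where the text says that some passed the threshold, this restates how they were chosen and supports nothing.

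The data are 8 spontaneous ovarian tumours of untreated female C57BL/6J mice, each from 1 mouse and on 1 array of its own. The 4 Nedd9-null and the 4 Nedd9-WT mice all carried the TgMISIIR-TAg transgene, in which the promoter of the Muellerian inhibiting substance type II receptor drives the SV40 T antigen, so that both genotypes are models of T antigen tumours. NEDD9 is a scaffold protein of focal adhesions, and the series asks how its loss alters tumours of this model. Ages were not given, and the labels give a tumour volume of 2000 mm3 as an upper limit in one place and as the size at which mice were killed in another. Markers of the ovary did not behave alike: Foxl2, a transcription factor of granulosa cells, averaged a log2 level of 3.91 ± 0.21 in Nedd9-null, against 3.66 ± 0.19 in Nedd9-WT tumours (SD, n = 4 each), while the other 4 of 5 granulosa markers had a lower mean in Nedd9-null tumours, by -5.39 for Inha, which encodes inhibin alpha, to -2.28 for Fshr, the receptor of follicle-stimulating hormone. None of the 5 passed the threshold over all 8 tumours, and 3 of them (Inha, Amh and Fshr) passed lower without Nedd9-null replicate 1, where 8.36% of all genes did. Amh and Fshr were well above background in 1 of the 4 Nedd9-null tumours and in all 4 Nedd9-WT tumours. Wt1, a transcription factor of ovarian surface and stromal cells, averaged 5.36 ± 0.31 in Nedd9-null, against 5.22 ± 0.27 in Nedd9-WT tumours.

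Podocalyxin, endoglycan and CD34 are a family of transmembrane sialomucins: a long extracellular stalk carries negatively charged sugars, and a short cytoplasmic tail ends in a motif for PDZ domains. The NHERF adaptors bind this motif of podocalyxin through their PDZ domains and bind ezrin through their other end. The ezrin, radixin and moesin proteins, called ERM proteins, in turn bind actin. Podocalyxin is best known from the glomerular podocyte of the kidney, where it keeps the foot processes apart, and it also lines the apical face of many epithelia and the luminal face of blood vessels; CD34 marks vascular endothelium, blood progenitors and some fibroblasts.

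All 11 probes were well above background on all 8 arrays, and none was saturated. Each gene has a single probe except that Cd34, Rdx and Slc9a3r2 have a pair whose starts lie 2112, 18501 and 1307 bases apart. Every value below is read by a probe of 60 bases, and 30 bases of 7 of them are printed, 5′ to 3′ as the scanner files list them: those of the 4 genes whose levels differed most between tumours, and both probes of Cd34 and Rdx, since probes of 1 gene that read different stretches are compared. Capitals mark AATAAA, the usual letters of a polyadenylation signal, which 4 of the 11 probes and 12.59% of the 39429 probes hold on the listed strand, the only one searched. The letters alone do not show that a probe reads such a signal or the 3′ end of a transcript. The Rdx probe that holds them starts 18501 bases upstream of the Rdx probe that does not.
Podxl probe A_52_P380263: tgtaaatacaagagccacatgtttatttac
Podxl2 probe A_55_P1986647: tcattggtgtcatctgcttcatcatcattg
Cd34 probe A_51_P204740: tattctcttctgAATAAAcgtgatgagtga
Cd34 probe A_55_P2009225: taaacaagatatcgggagccaccagagcta
Rdx probe A_51_P430950: ttttggactctgtaggacaaaagagaactg
Rdx probe A_55_P2183172: cgtctgagaatcAATAAAcgaattttggcc
Slc9a3r1 probe A_51_P502150: caactacgtgtgatgaccaagtccaaggtt
In mm9, the build of the file headers, the Podxl probe lies at chr6:31470405-31470464 and the Podxl2 probe at chr6:88793527-88793586, both on the minus strand. On the plus strand are the Cd34 probes at chr1:196787392-196787451 and chr1:196785280-196785339, the Rdx probes at chr9:51896231-51896290 and chr9:51877730-51877789, and the Slc9a3r1 probe at chr11:115042133-115042192. The remaining probes lie at chr17:6942607-6942666 for Ezr, at chrX:93363832-93363891 for Msn and at chr17:24776234-24776293 and chr17:24777541-24777600 for Slc9a3r2. No member lies on chromosome 13, which holds Nedd9. Whether a probe falls in an exon, an intron or a UTR was not looked up, as no annotation of this build was used.

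Levels are log2 signals from which the 75th percentile of the array was subtracted, so that 0 is a level at that percentile; levels of different probes cannot be set against each other. Differences are Nedd9-null minus Nedd9-WT from limma, with the standard error (SE) and the 95% interval. The targeted gene had log2 levels of -2.01, -3.50, -3.39 and -4.03 in Nedd9-null tumours, all below the 1.15, 0.84, 1.30 and 1.85 of Nedd9-WT tumours (difference -4.51, SE 0.44); which exons the allele lacks was not given, so the probe may or may not lie in the part that was removed. Nedd9-null replicate 1 stood apart from its group: its correlation over all genes was 0.886 to 0.920 with arrays of its own genotype and 0.938 to 0.973 with arrays of Nedd9-WT tumours, so each main difference is also given without it. Each genotype lay on 1 slide of its own with its own scan, and in all values below the slide and the genotype cannot be told apart. With a threshold of 0.05 on the adjusted p, 17 of 25536 genes differed (0.0666%), 15 higher (0.0587%) and 2 lower (0.00783%); leaving out 1 array gave 4771 genes for Nedd9-null replicate 1, 42 for Nedd9-WT replicate 1, 2 for Nedd9-null replicate 4 and 0 for each of the rest.

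Among the sialomucins, Podxl and Podxl2 had a higher mean and Cd34 had a lower mean in Nedd9-null tumours. Only Podxl, which was chosen for it, passed the threshold over all 8 tumours. The log2 level of Podxl was 1.62, 1.41, 1.71 and 1.29 in Nedd9-null tumours 1 to 4, against -1.03, -0.21, -0.73 and -0.82 in Nedd9-WT tumours 1 to 4. The genotypes did not overlap: the lowest Nedd9-null tumour lay above the highest Nedd9-WT tumour, and the 4 Nedd9-null tumours spread over 0.42 log2 units. Before scaling, the signal was 7412 to 10568 in the Nedd9-null group, against 1401 to 2751 in the Nedd9-WT group. The means were 1.51 ± 0.19 in Nedd9-null, against -0.70 ± 0.35 in Nedd9-WT tumours (SD, n = 4 each), a difference of 2.20 (SE 0.21, interval 1.71 to 2.70), or 4.61-fold higher. Without Nedd9-null replicate 1 it was 2.17 (SE 0.23), so the size of the difference did not rest on the array that stood apart. Of the 25536 genes, Podxl ranked 1587 by the size of its difference.

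A further probe of the array, listed under a transcript identifier in place of the symbol and described as podocalyxin, starts 3048 bases from the Podxl probe, at chr6:31473453-31473512. It was dim: its signal was 17, 13.6, 6.8 and 21.4 in Nedd9-null tumours, against 3.8, 6.2, 3.9 and 4.4 in Nedd9-WT tumours. It was well above background in 2 Nedd9-null tumours, replicates 1 and 4, and in 0 Nedd9-WT tumours, and was left out of the fits. As 6 of the 8 values are not well above background, no order of the tumours and no fold is read from it.

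**Figure D1:**
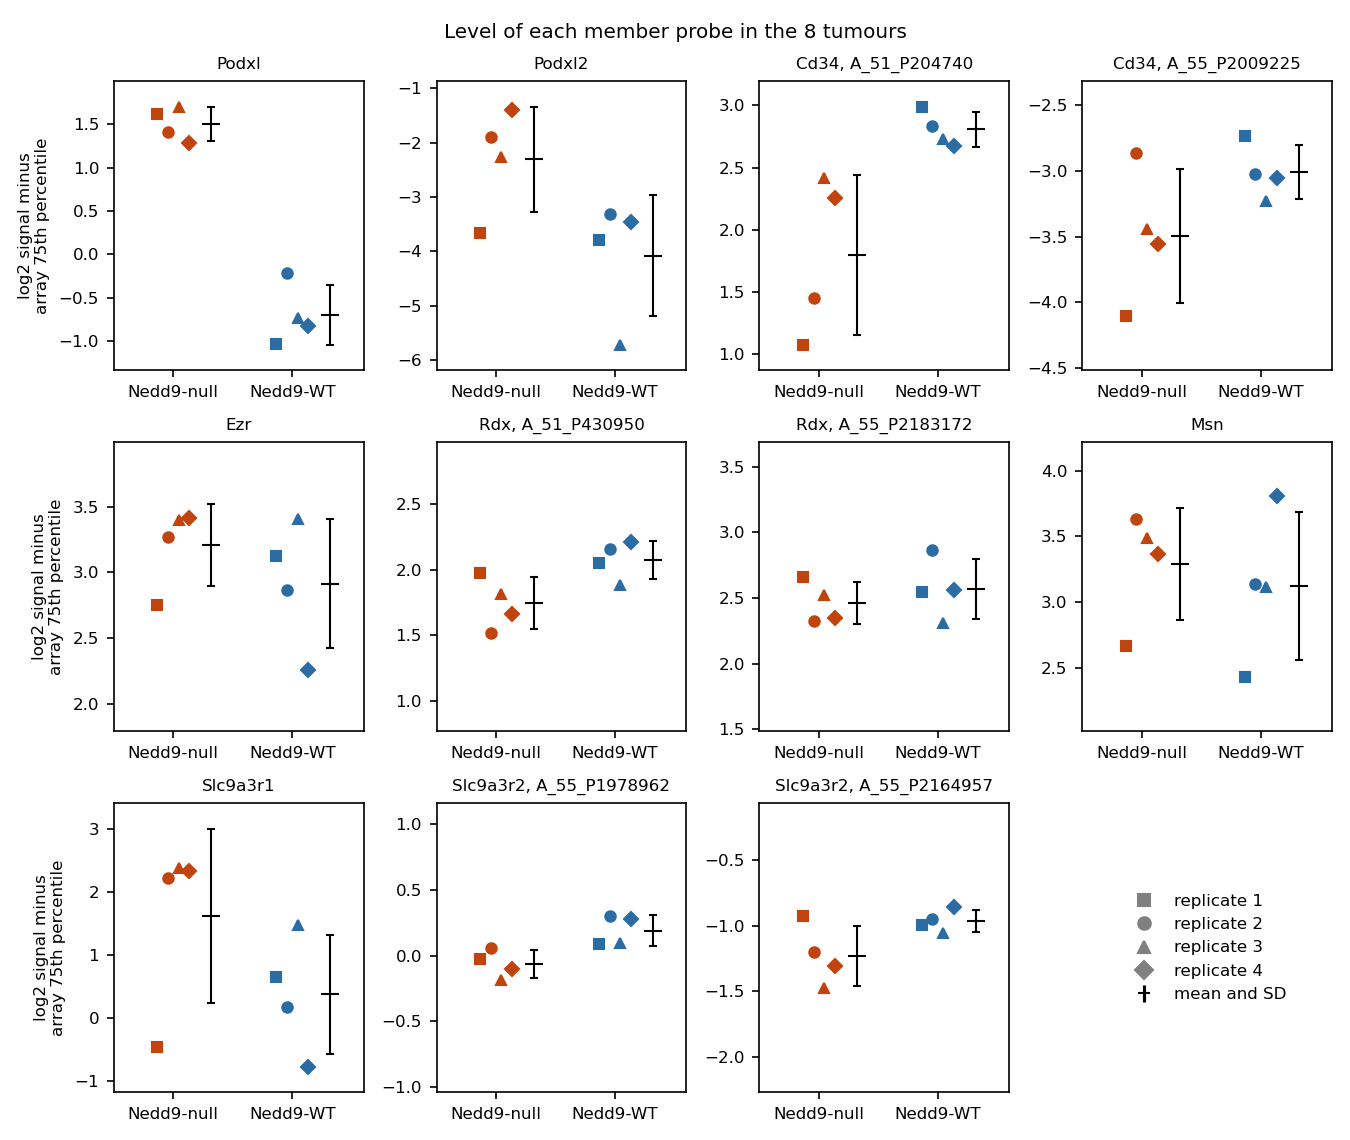
Level of each of the 11 probes in the 8 tumours, as log2 signal minus the 75th percentile of the array, with the 4 Nedd9-null tumours on the left of each panel and the 4 Nedd9-WT tumours on the right; symbols give the replicate number, which does not pair tumours, and the black bars give mean and SD. The panel of Podxl shows 4 Nedd9-null tumours between 1.29 and 1.71 and 4 Nedd9-WT tumours between -1.03 and -0.21, and in the panel of Slc9a3r1 Nedd9-null replicate 1 lies at -0.46, far below the other 3. Each panel has its own axis range.

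Podxl2, which encodes endoglycan, had log2 levels of -3.66, -1.90, -2.26 and -1.41 in Nedd9-null tumours, against -3.80, -3.32, -5.73 and -3.47 in Nedd9-WT tumours. Nedd9-null replicates 2 to 4 lay above all Nedd9-WT tumours, and replicate 1 lay within their range, below 2 of them. The difference was 1.77 (SE 0.66, interval 0.25 to 3.30, limma adjusted p = 0.162), 3.42-fold. It was 2.23 (SE 0.60, limma adjusted p = 0.0431), 4.68-fold, without Nedd9-null replicate 1. Podxl and Podxl2 thus parted in Nedd9-null replicate 1, which had the Podxl level of its genotype and a Podxl2 level inside the Nedd9-WT range. They also parted in Nedd9-WT replicate 3, which differed from the Nedd9-WT mean by -1.65 in Podxl2 and by -0.03 in Podxl. Over 17 alternatives the Podxl2 difference was 1.22 to 2.23.

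Cd34 was lower in Nedd9-null tumours in the brighter of its probes, A_51_P204740, with log2 levels of 1.07, 1.45, 2.42 and 2.26 in Nedd9-null tumours, against 2.99, 2.84, 2.73 and 2.67 in Nedd9-WT tumours. All 4 Nedd9-null values were below all 4 Nedd9-WT values, and the Nedd9-null tumours spread more widely (1.80 ± 0.64 in Nedd9-null, against 2.81 ± 0.14 in Nedd9-WT tumours, SD, n = 4 each). The difference was -1.01 (SE 0.31, interval -1.74 to -0.29, limma adjusted p = 0.122), 2.01-fold lower. It was -0.77 (SE 0.26, limma adjusted p = 0.0840) without Nedd9-null replicate 1, the tumour with the lowest level. The dimmer probe, A_55_P2009225, gave -4.11, -2.86, -3.44 and -3.55 in Nedd9-null tumours, against -2.73, -3.02, -3.23 and -3.06 in Nedd9-WT tumours. Here Nedd9-null replicate 2 lay above 3 of the Nedd9-WT tumours, and the difference was -0.48 (SE 0.27, interval -1.11 to 0.14). The 2 probes of Cd34, centred on their means, differed by 0.52 log2 units (root mean square over the 8 tumours), more than those of Rdx (0.15) or Slc9a3r2 (0.12).

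Endothelial cells are a main source of Cd34, and markers of these cells were lower too. Of 12 endothelial markers, 11 had a lower mean in Nedd9-null tumours, their summed scaled signal was 6.03 to 7.86 in Nedd9-null, against 8.90 to 19.5 in Nedd9-WT tumours, and none of the 12 was at background on all arrays. Eng and Emcn, which encode the endothelial surface proteins endoglin and endomucin, differed by -0.98 (SE 0.29, limma adjusted p = 0.112) and -0.73 (SE 0.24, limma adjusted p = 0.131), and none of the 12 passed the threshold. Without Nedd9-null replicate 1, 1 of the 12 passed lower (8.36% of all genes), Eng at -1.13 (limma adjusted p = 0.0366). The part of these markers in the Cd34 values was not tested, and in bulk tumour RNA fewer cells of a type and less RNA per cell cannot be told apart. The mean of the 12 endothelial markers differed from the Nedd9-WT mean by -0.83 to -0.70 in Nedd9-null tumours, against -0.37 to 0.80 in Nedd9-WT tumours. The brighter Cd34 probe differed from it by -1.74 to -0.39 in Nedd9-null tumours, a wider span than that of the markers. Nedd9-WT replicate 4 had the highest marker mean (0.80) and, at -0.14, the lowest level of this Cd34 probe among Nedd9-WT tumours.

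The ERM linkers differed little between genotypes. Ezr, which encodes ezrin, the ERM protein of epithelial microvilli, had log2 levels of 2.75, 3.27, 3.40 and 3.42 in Nedd9-null tumours, against 3.12, 2.87, 3.41 and 2.25 in Nedd9-WT tumours. The genotypes overlapped, and the difference was 0.30 (SE 0.28, interval -0.36 to 0.95). Msn encodes moesin, the main ERM protein of endothelium and leukocytes, and gave 2.67, 3.63, 3.49 and 3.36 in Nedd9-null tumours, against 2.43, 3.14, 3.12 and 3.80 in Nedd9-WT tumours. The highest and the lowest of the 8 values were both from Nedd9-WT tumours, and the difference was 0.17 (SE 0.33, interval -0.60 to 0.94); its sign turned to -0.02 with the array median as the scale and to -0.06 without Nedd9-WT replicate 1.

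Rdx, which encodes radixin, was read by probes annotated to different transcript variants. The first, A_51_P430950, gave 1.98, 1.52, 1.82 and 1.67 in Nedd9-null tumours, against 2.05, 2.16, 1.88 and 2.21 in Nedd9-WT tumours, and the second, A_55_P2183172, gave 2.66, 2.32, 2.52 and 2.35 in Nedd9-null tumours, against 2.54, 2.86, 2.31 and 2.56 in Nedd9-WT tumours. The genotypes overlapped in both, with differences of -0.33 (SE 0.16, interval -0.71 to 0.04) and -0.10 (SE 0.17, interval -0.50 to 0.30). The intervals of Ezr, Msn and both Rdx probes held 0 and ended within 1 log2 unit of it, so that a change as large as that of Podxl lay outside all 4. Without Nedd9-null replicate 1 the intervals of Ezr and Msn held 0 and reached up to 1.11. In that fit Rdx probe A_51_P430950 differed by -0.41, with an interval of -0.79 to -0.03 that did not hold 0.

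Of the adaptors, Slc9a3r1 had a positive and Slc9a3r2 a negative difference, each with an interval that held 0. Slc9a3r1, which encodes NHERF1, the adaptor of epithelial apical membranes, had log2 levels of -0.46, 2.23, 2.38 and 2.33 in Nedd9-null tumours, against 0.65, 0.17, 1.48 and -0.79 in Nedd9-WT tumours. Nedd9-null replicates 2 to 4 lay close together and above all Nedd9-WT tumours, while replicate 1 was lower than all but 1 of the Nedd9-WT tumours. The difference was 1.24 (SE 0.74, interval -0.48 to 2.96), and 1.94 (SE 0.49), 3.82-fold, without Nedd9-null replicate 1. Slc9a3r2, which encodes NHERF2, the adaptor that binds podocalyxin in podocytes, gave -0.02, 0.06, -0.19 and -0.10 in Nedd9-null tumours, against 0.09, 0.31, 0.10 and 0.28 in Nedd9-WT tumours, with probe A_55_P1978962. All Nedd9-null values were below all Nedd9-WT values, over a small difference of -0.26 (SE 0.14, interval -0.58 to 0.07). The second probe, A_55_P2164957, also gave -0.26 (SE 0.16), with Nedd9-null replicate 1 inside the Nedd9-WT range. Without that tumour the second probe gave -0.36, with an interval of -0.71 to -0.02.

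**Figure D2:**
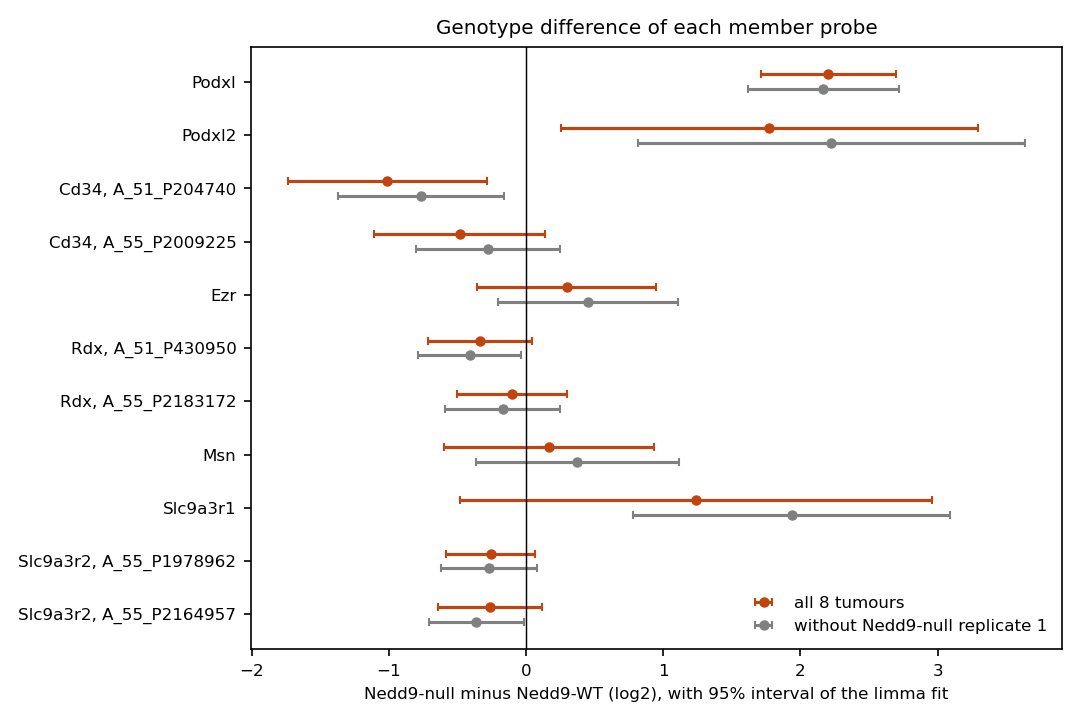
Difference Nedd9-null minus Nedd9-WT (log2) of each probe, with the 95% interval of the limma fit, over all 8 tumours (orange) and without Nedd9-null replicate 1 (grey). Podxl hardly moves when this tumour is left out (2.20 and 2.17), while Podxl2 (1.77 and 2.23) and Slc9a3r1 (1.24 and 1.94) move away from 0 and Cd34 moves towards it (-1.01 and -0.77).

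Of the 8 genes, 5 had a positive difference, 1 passed the threshold higher, which is Podxl, chosen for it (0.0587% of all genes passed higher), and 0 lower (0.00783%), and the median difference was 0.23; over all genes 13338 of 25536 were positive and the median was 0.03. With 1 probe a gene, 1 of the 8 lay wholly higher in Nedd9-null tumours and 2 wholly lower, where 7.16% of all genes lay wholly higher and 5.58% wholly lower. Leaving out Nedd9-null replicate 1, 3 of the 8 passed higher (Podxl, Podxl2 and Slc9a3r1) and 0 lower, where 10.3% of all genes passed higher and 8.36% lower. Podxl itself no longer passed when any of Nedd9-null replicates 2 to 4 or Nedd9-WT replicates 2 to 4 was left out, or with the array median as the scale, although its difference stayed between 2.01 and 2.37. These counts describe genes chosen with the comparison known.

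Podxl, Podxl2 and Slc9a3r1 can be made by epithelial cells, and the levels of epithelial and ciliated cell markers are given beside them. Of 7 epithelial markers, all had a higher mean in Nedd9-null tumours; their mean difference from the Nedd9-WT mean was -1.55, 2.65, 2.81 and 1.55 in Nedd9-null tumours 1 to 4, against -0.83 to 0.86 in Nedd9-WT tumours. Nedd9-null replicate 1 was the lowest of the 8 tumours in these markers. The keratin gene Krt19 differed by 1.95 (SE 1.04, limma adjusted p = 0.297) and the tight junction gene Cldn3 by 2.67 (SE 1.14, limma adjusted p = 0.205); 0 of the 7 passed. Leaving out Nedd9-null replicate 1, 4 of the 7 passed higher (10.3% of all genes), with Krt19 at 3.01 (limma adjusted p = 0.0102) and Cldn3 at 3.75 (limma adjusted p = 0.0119). The summed scaled signal of the 7 was 5.78 to 108 in Nedd9-null, against 11.3 to 55.6 in Nedd9-WT tumours. The part of epithelial cells in the Podxl, Podxl2 and Slc9a3r1 values was not tested.

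All 6 ciliated cell markers had a higher mean in Nedd9-null tumours, and their mean difference from the Nedd9-WT mean was 1.83, 4.39, 4.84 and 5.06 in Nedd9-null tumours 1 to 4, against -1.06 to 0.97 in Nedd9-WT tumours. The genotypes did not overlap in this mean. Of the 6, 0 passed the threshold over all 8 tumours and 5 passed higher in the 7 tumours that remain without Nedd9-null replicate 1. In that fit 10.3% of all genes passed higher. Their summed scaled signal was 7.86 to 72.2 in Nedd9-null, against 1.23 to 2.80 in Nedd9-WT tumours, and the part of ciliated cells in the values of the members was not tested.

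The 5 granulosa markers differed from the Nedd9-WT mean by 0.15, -2.66, -3.73 and -3.85 on average in Nedd9-null tumours 1 to 4, against -0.52 to 0.44 in Nedd9-WT tumours. Nedd9-null replicates 2 to 4 lay below all Nedd9-WT tumours and replicate 1 lay among them, and the median difference of the 5 was -2.38. Their summed scaled signal was 13.4 to 39.2 in Nedd9-null, against 33.9 to 59.7 in Nedd9-WT tumours. Different genes were the brightest in these sums. In Nedd9-null replicates 2 to 4 Foxl2 was at 3.61 to 3.98 and Inha at -3.27 to 0.13. In Nedd9-WT tumours Foxl2 was at 3.38 to 3.79 and Inha at 4.39 to 5.52. The part of granulosa cells in the values of the members was not tested. Of 4 mesothelial markers, 2 had a higher mean, with summed levels of 0.970 to 8.43 in Nedd9-null, against 2.56 to 5.16 in Nedd9-WT tumours. The corresponding ranges overlapped for leukocyte markers (16.2 to 63.2 in Nedd9-null, 18.0 to 33.4 in Nedd9-WT; 7 of 9 with a higher mean) and fibroblast markers (10.9 to 16.0 in Nedd9-null, 10.4 to 39.4 in Nedd9-WT; 1 of 5). They also overlapped for megakaryocyte and platelet markers (0.641 to 3.41 in Nedd9-null, 0.790 to 8.93 in Nedd9-WT, 1 of 4). A sum follows its brightest markers: the leukocyte sum of 63.2 was from Nedd9-null replicate 1, where Itgam was at 5.84. The mean difference of the leukocyte markers from the Nedd9-WT mean was -0.25 in that tumour, the lowest of the Nedd9-null tumours (-0.25 to 0.86). No marker of any list was at background on all arrays.

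**Figure D3:**
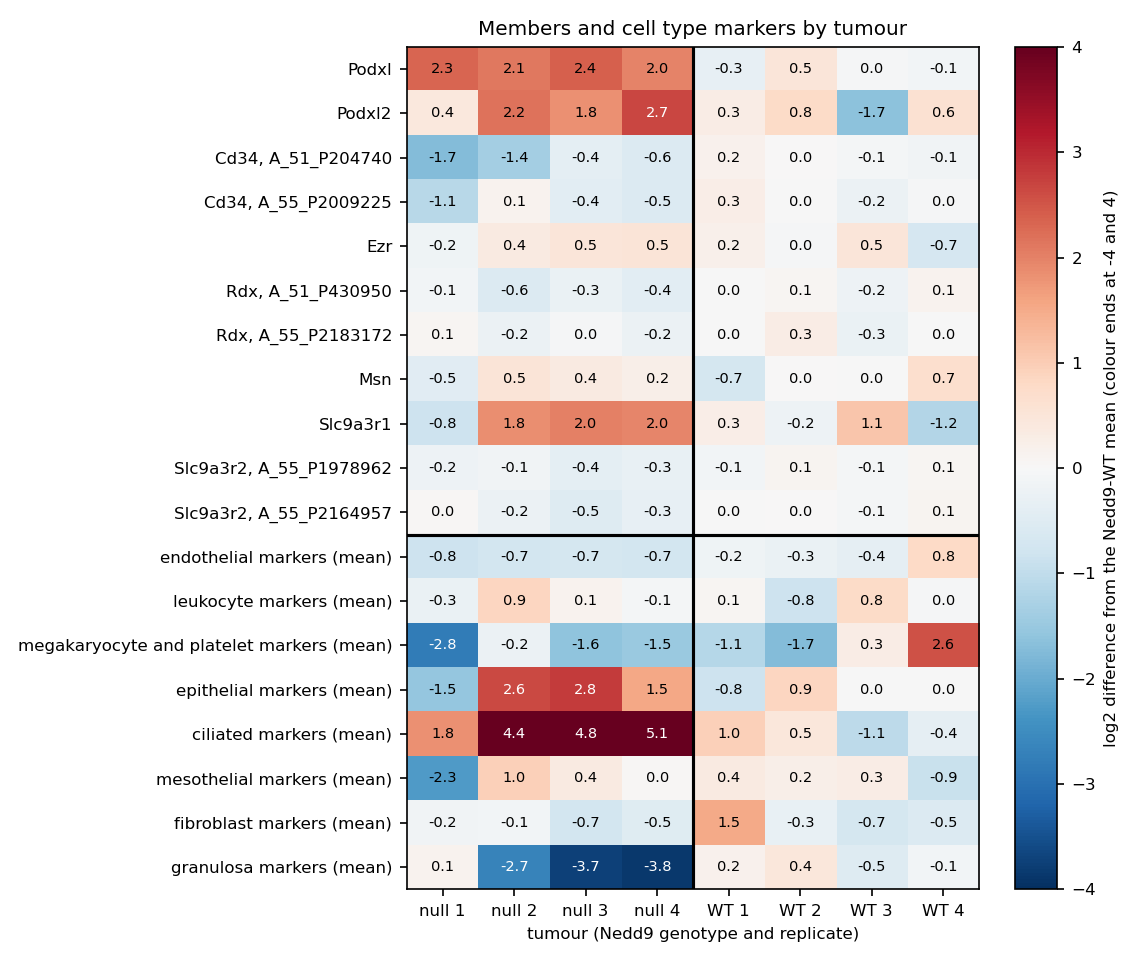
Difference of each member probe (upper block) and of the mean of each marker list (lower block) from the Nedd9-WT mean, in log2 units, for the 4 Nedd9-null (left) and the 4 Nedd9-WT tumours (right); red is higher, blue lower, and colours end at -4 and 4. In the column of Nedd9-null replicate 1, Podxl is at 2.31 while Podxl2 is at 0.42, Slc9a3r1 at -0.84 and the epithelial markers at -1.55.

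The genes whose pattern over the 8 tumours was most like that of Podxl were found by the root mean square difference of log2 levels centred on each gene's mean, among 21948 genes above background on all arrays. The 5 nearest were Gm4480 (0.39), a predicted gene, 2310065F04Rik (0.40), a RIKEN transcript, Fam81a (0.43), a gene of little known function, Naaa (0.47), which encodes an enzyme that breaks down fatty acid ethanolamides, and Rassf10 (0.49), a member of the Ras association family; the median gene lay at 1.22. 2310065F04Rik rose by 2.76 (SE 0.21, limma adjusted p = 0.0281), and the other 4 differed by 1.56 to 2.13 without passing; 2310065F04Rik did not pass once Nedd9-null replicate 2 or 3, or any Nedd9-WT replicate but the first, was dropped (limma adjusted p = 0.0870 to 0.123). Among the members themselves Podxl2 was the nearest to Podxl (0.98) and Cd34 the farthest (1.68), and the closest pair of all was Rdx with Slc9a3r2 (0.18). Nearest to the brighter Cd34 probe were Tnfrsf9 (0.33), a receptor of activated lymphocytes, Gm3604 (0.34), a predicted gene, Adcy7 (0.34), an adenylate cyclase gene, Snx24 (0.37), a sorting nexin gene, and Pprc1 (0.37), a transcriptional coactivator gene. These distances describe 8 tumours that share their slides within a genotype. The genes near Podxl and Cd34 were picked for a like pattern over these same tumours. Their genotype differences therefore follow from that choice, and the calls among them support nothing.

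Proteins that act on or bind the ERM and NHERF proteins were examined in lists of related genes. Of 13 tested among 14 ERM relatives and regulators, 0 passed the threshold with limma and 7 had an unadjusted p under 0.05, 1 higher and 6 lower, where 13.1% of all genes had one higher and 10.8% lower; the median difference was -0.47. Prkcq, which encodes the kinase PKC theta, was -2.75, -2.61, -2.25 and -3.24 in Nedd9-null tumours, against -3.50, -6.18, -6.70 and -5.05 in Nedd9-WT tumours, a difference of 2.65 (SE 0.66, limma adjusted p = 0.0948). Under other background handling the Prkcq difference was smaller, 1.81 with the normexp correction and 1.91 in the deposited value table. Pip5k1a, which encodes a kinase that makes the phosphoinositide that opens ERM proteins, differed by -1.03 (SE 0.27, limma adjusted p = 0.0977), and Slk, an ERM kinase gene, by -0.97 (SE 0.27, limma adjusted p = 0.106). When Nedd9-null replicate 1 was left out, Prkcq passed higher (10.3% of all genes), and 4 of the 13 passed lower (8.36% of all genes), Pip5k1a and Slk among them.

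Of 18 membrane and PDZ partners of ERM or NHERF proteins, 0 passed with limma, 6 had an unadjusted p under 0.05, all higher (13.1% of all genes), and the median difference was 0.23. Cd44, the hyaluronan receptor gene whose product binds ERM proteins, was -1.33, 1.30, 0.85 and 0.30 in Nedd9-null tumours, against -2.88 to -1.86 in the 4 Nedd9-WT tumours. Its genotypes did not overlap, and it differed by 2.66 (SE 0.56, limma adjusted p = 0.0836). L1cam, an adhesion molecule gene, differed by 1.15 (SE 0.19, limma adjusted p = 0.0651), and Pdzd3, a gene of an adaptor related to the NHERF proteins that was above background in 2 of the 4 Nedd9-WT tumours, by 3.61 (SE 0.84, limma adjusted p = 0.0904). Both were smaller under other background handling: with normexp L1cam differed by 0.69 and Pdzd3 by 1.87, and in the deposited value table by 0.61 and 2.01. In the fit that leaves out Nedd9-null replicate 1, 4 of the 18 passed higher (10.3% of all genes) and 0 lower, these 3 among them.

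Sialomucins can carry the sulphated sugars that selectins bind. Of 12 tested among 14 genes of selectins and selectin ligand synthesis, 0 passed with limma, 2 had an unadjusted p under 0.05 higher and 1 lower (13.1% and 10.8% of all genes), and the median difference was 0.39. Chst2, a sulphotransferase gene of this pathway, was -3.88, 0.64, 0.34 and 0.32 in Nedd9-null tumours, against -4.03, -3.90, -3.78 and -3.13 in Nedd9-WT tumours, so that replicates 2 to 4 stood far above and replicate 1 lay with Nedd9-WT (difference 3.07, SE 0.97, limma adjusted p = 0.125). The sialyltransferase gene St3gal4 differed by -1.14 (SE 0.38, limma adjusted p = 0.137) and the fucosyltransferase gene Fut7, above background in 3 of the 4 Nedd9-WT tumours, by 0.81 (SE 0.32, limma adjusted p = 0.178), or 0.36 with normexp, 0.51 with quantiles and 0.27 in the deposited value table. When Nedd9-null replicate 1 was left out, 2 of the 12 passed higher (10.3% of all genes), Chst2 among them, and St3gal4 passed lower (8.36% of all genes).

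Podocalyxin is a protein of the apical face, and 1 of 25 listed genes of apical trafficking and polarity passed the threshold higher (0.0587% of all genes). As the list was chosen with earlier results of these data known, this call supports nothing. Lin7a, which encodes a scaffold of the Crumbs polarity complex, was -2.39, -3.26, -1.57 and -2.79 in Nedd9-null tumours, against -5.71, -6.73, -6.07 and -5.84 in Nedd9-WT tumours, and rose by 3.58 (SE 0.39, limma adjusted p = 0.0363). This call was lost, at differences of 3.27 to 3.84, without any one of Nedd9-null replicates 2 to 4 and Nedd9-WT replicates 2 to 4, and with the array median or quantiles as the scale. Under other background handling the Lin7a difference was smaller. It was 2.39 with normexp (limma adjusted p = 0.0491) and 2.68 in the deposited value table (limma adjusted p = 0.0482). Patj, another scaffold gene of that complex, listed as Inadl, differed by 1.18 (SE 0.27, limma adjusted p = 0.0884), or 0.74 as the mean of its probes, and Prkcz, an atypical protein kinase C gene, by 2.92 (SE 0.69, limma adjusted p = 0.0916). The median of the list was 0.08, near the 0.03 of all genes, and without Nedd9-null replicate 1 it held 5 genes past the threshold in each direction (10.3% of all genes higher, 8.36% lower).

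Genes of the proteins that carry podocalyxin vesicles to the apical face, known from cultured canine kidney cells, had differences of opposite sign; they were picked after their values were seen. Sytl4 was 1.47, -3.34, -5.49 and -5.00 in Nedd9-null tumours, against 2.04, 1.62, -0.10 and 1.23 in Nedd9-WT tumours, with replicate 1 inside the Nedd9-WT range and the other 3 Nedd9-null tumours below it (difference -4.29, SE 1.45, limma adjusted p = 0.139). Its partners Rab27b and Rab3b, small GTPase genes, differed by -2.61 (SE 0.91, limma adjusted p = 0.145) and -2.25 (SE 0.58, limma adjusted p = 0.0976). The related gene Sytl2, above background in 3 of the 4 Nedd9-WT tumours, differed by 3.31 (SE 1.30, limma adjusted p = 0.178), and by 1.99 without Nedd9-WT replicate 3, which had -8.85. Its difference was also smaller with normexp (2.32) and in the deposited value table (2.44). Without Nedd9-null replicate 1 Sytl4, Rab27b and Rab3b passed lower (limma adjusted p = 0.00167, 0.00632 and 0.00938) and Sytl2 did not pass (limma adjusted p = 0.0991). In that fit 8.36% of all genes passed lower and 10.3% higher, and as these genes were picked on their values, the calls support nothing. Other trafficking genes of the list differed by -0.09 (Rab35), 0.28 (Rab8a), 0.11 (Vamp7), -0.72 (Rab11a) and 1.74 (Stx3) over all tumours, and none of them passed.

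Podocyte genes stand for the cell in which podocalyxin is best known. Of 11, 0 passed with limma, 3 had an unadjusted p under 0.05, all lower (10.8% of all genes), and the median difference was -0.47. Kirrel and Cd2ap, genes of the slit diaphragm and of an adaptor attached to it, differed by -0.85 (SE 0.24, limma adjusted p = 0.109) and -0.47 (SE 0.15, limma adjusted p = 0.123), and Synpo, an actin-associated gene, by -0.69 (SE 0.29, limma adjusted p = 0.204). With Nedd9-null replicate 1 left out, 1 of the 11 passed lower (8.36% of all genes), Kirrel at -0.94 (limma adjusted p = 0.0427). Wt1, a regulator of Podxl in the kidney, differed by 0.14 (SE 0.22, limma adjusted p = 0.731).

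**Figure D4:**
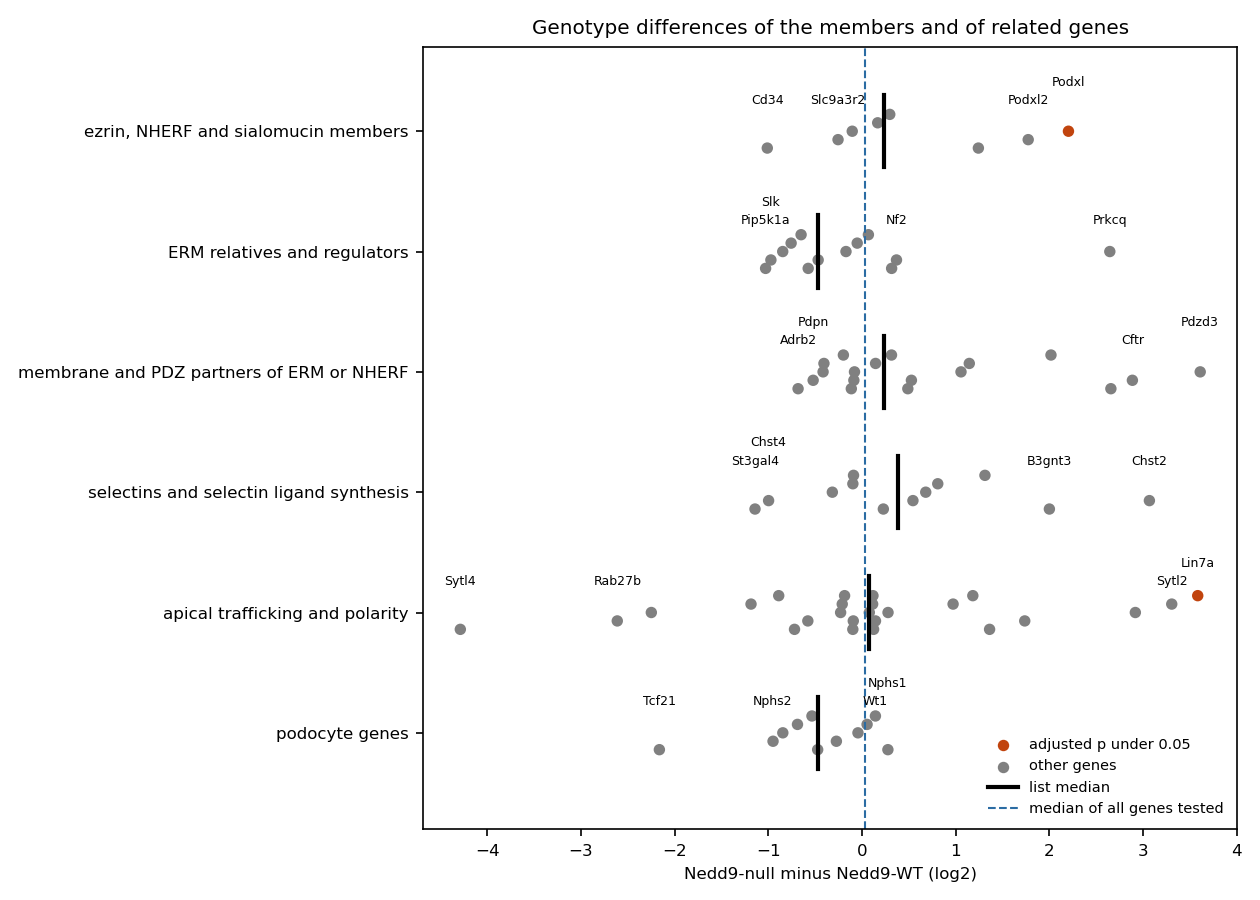
Difference Nedd9-null minus Nedd9-WT (log2) of the 8 members (top row) and of the genes of 5 related lists, 1 point a gene, with the outermost genes named; orange points passed an adjusted p of 0.05, black bars are list medians, and the dashed line is the median of all genes, 0.03. Podxl (2.20) and Lin7a (3.58) are the orange points, and the other lists show points on both sides of 0 with medians from -0.47 to 0.39.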

How the data were processed

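RNA of 4 Nedd9-null and 4 Nedd9-WT tumours (500 ng each) was labelled with Cy3 and hybridised to 1-colour Agilent arrays, per the labels' protocols. The deposited scanner files hold the processed intensity of each spot, background-subtracted within the array and not normalized between arrays, made with Agilent Feature Extraction 9.5.3 per the submitters' processing notes. The deposited value table, used as an alternative, holds log2 values with a shared median of 8.24 in every column; its values follow the mean spot signal, and its background step and centring are not given in the sources used here. From the intensities, control and outlier spots were removed, spots of a probe averaged, and log2 values scaled to the 75th percentile of each array (2418 to 3552 in signal). Between 73.0% and 84.6% of 39429 probes were well above background; 27 lacked a value on some array. Kept were 31784 probes above background on at least 3 of 4 arrays in either genotype, and the brightest stood for its gene (25536 genes). A RefSeq gene list of GRCm38.p6 served to update symbols only: the accession matched for 26055 probes, the symbol for 3195 and a synonym for 930, and 9249 were left as the files name them.

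The test between genotypes was 2-sided, from lmFit and eBayes of limma 3.58.1 (R 4.3.3, files read by version 1.17.8 of data.table), adjusted by Benjamini-Hochberg over all genes; the fit was tested on simulated data. The number of arrays limits the precision. The members, the gene lists and the tests were chosen with earlier results of these data known. Named are all members with every probe, Nedd9, the 3 genes of smallest p in each related list, and the 5 genes nearest to Podxl and to Cd34; Sytl2, Sytl4, Rab27b, Rab3b and the markers and Wt1 printed were named after their values were seen. Replicate numbers did not pair the tumours: deviations of same-numbered arrays correlated at -0.23 to -0.04. Alternatives were another background correction, other scalings, the value table, other filters, other ways to combine probes, array weights, a replicate block and leaving out each array.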

Additional observations from a re-analysis of the deposited data

Results flagged for a closer look

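In 82 checks of groups of 4 tumours, in which chance singles out about 1 group in 20, 6 tumours lay far from the other 3 of their genotype. In 5 of the 6 the tumour was Nedd9-null replicate 1. Its Slc9a3r1 level was -0.46, where the others had 2.23 to 2.38. Prkcz was -3.30 in it and -0.64 to -0.41 in the others, and Chst2 was -3.88 in it and 0.32 to 0.64 in the others. Pip5k1a was 1.22 in it and 0.29 to 0.40 in the others, and St3gal4 was 1.41 in it and -0.26 to -0.04 in the others. The remaining tumour was Nedd9-WT replicate 2, with a Gm4480 level of -4.49 where the other Nedd9-WT tumours had -5.80 to -5.60. The probe described as podocalyxin but listed under a transcript identifier was outside the fits, and it was well above background in 2 Nedd9-null tumours and in 0 Nedd9-WT tumours.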

How the results depend on the processing

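Over 17 alternatives Podxl differed by 2.01 to 2.37, always higher in Nedd9-null tumours, but its adjusted p ranged from 0.00134 to 0.217 and passed in 9 of the 17; it did not pass with the array median, with the replicate block or when any array other than the first of each genotype was left out. With the array median as the scale, which moves the median of all genes to -0.16, its difference was 2.01 (adjusted p = 0.0635), and 4 genes, 0 members and 0 related genes passed, against 17, 1 and 1 in the fit as reported. With quantile normalization 4 genes and 0 related genes passed, and with genes above background on all 8 arrays 7 passed. Array weights gave 5984 genes, 3 members and 30 related genes. The replicate block, with numbers that do not pair the tumours, gave 0 genes, 0 members and 0 related genes, and Podxl at 2.20 (adjusted p = 0.217). Leaving out 1 array gave 0 to 4771 genes, 0 to 3 members, 0 to 23 related genes and a Podxl difference of 2.09 to 2.37; the 4771 came without Nedd9-null replicate 1. The count was 42 when Nedd9-WT replicate 1 was left out, 2 for Nedd9-null replicate 4 and 0 for any of the other 5. Msn turned to -0.023 with the array median and, over the arrays left out in turn, ranged from -0.064 to 0.396, negative only without Nedd9-WT replicate 1. Of 136 values of the 8 members, 122 kept direction and side of the threshold, 4 passed newly, 8 no longer passed and 2 turned; of 507 values of 30 other named genes, 444, 41, 22 and 0 did. The number of arrays, and the shared slide within each genotype, limit all of these values.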
